A study of Mus musculus with 8 samples.

Results

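The 39 genes described here run the cell division cycle. They were chosen by name, as 13 genes of G1 and of the passage from G1 into S phase, 14 genes of DNA replication and 12 genes of mitosis, out of 17099 genes tested. Total RNA came from whole mouse embryos at embryonic day 9.0, labelled wild type or Arid3b-null, in 4 pools of 3 to 4 embryos for each genotype, and each pool was hybridised to a one-colour Agilent array. Arid3b encodes a DNA-binding protein with an AT-rich interaction domain. The sources used here do not give the strain, the design of the null allele or the litters behind each pool. The p-values therefore speak of the spread among these particular pools. That spread is not only technical, because the pools differed in Y-linked transcripts, but the litters it covers are not known.

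In G1, D-type cyclins with CDK4 or CDK6, and then E-type cyclins with CDK2, phosphorylate the retinoblastoma protein, which frees E2F transcription factors to switch on genes needed in S phase. Licensing factors load the MCM helicase at origins, and ribonucleotide reductase supplies deoxynucleotides for the new strands. Cyclins A and B with CDK1, and the polo and aurora kinases, carry the cell through mitosis.

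Pools 1 and 2 of both genotypes were on slide 1 and pools 3 and 4 on slide 2. Wild-type pools held positions 1 and 2 and null pools positions 3 and 4 on both slides, so position and genotype cannot be told apart. On its 3 probes Arid3b stood at 30.2% to 39.2% of the wild-type level in the null pools (limma adjusted p of 0.00460 to 0.00614). The sources used here do not say which part of the gene was removed, so these probes may or may not lie in it. Values below are log2 signals relative to the 75th percentile of each array. Differences are the null mean less the wild-type mean, each with its standard error from the limma fit. Called means an adjusted p under 0.05 over all genes tested. A level is compared between pools for 1 gene, not between genes, because each gene has its own probe.

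All 39 genes were measured, and all passed the filter on dim probes. Of these, 3 fell in the null embryos, the cyclin genes Ccnd1 and Ccne1 and the ribonucleotide reductase subunit gene Rrm2, and 0 rose. Against this count of 3 lower out of 39, limma called 1.35% of all genes lower and 2.85% higher, 4.2% in either direction. At an unadjusted p under 0.05 there were 9 of the 39, all lower, against 20.7% of all genes in either direction. With the replicate number of the labels as a block in the fit, this count was 19 of the 39, against 36.0% of all genes. With slide as a block it was 16, against 26.7%. All null values lay below all wild-type values for 10 of the 39, and this was so for 8.06% of all genes. The mean was lower in the null pools for 33 of the 39 and for 51.3% of all genes, and the median difference was -0.10 against -0.01 over all genes. Under at least 1 alternative processing, the differences of Cdk2, E2f1, Mcm3, Mcm4, Mcm7, Pola1, Ccnb1, Cdk1, Aurkb, Bub1 and Mki67 turned above 0. RNA was taken from whole embryos, so fewer cells of a type and less RNA per cell cannot be told apart.

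**Figure D1:**
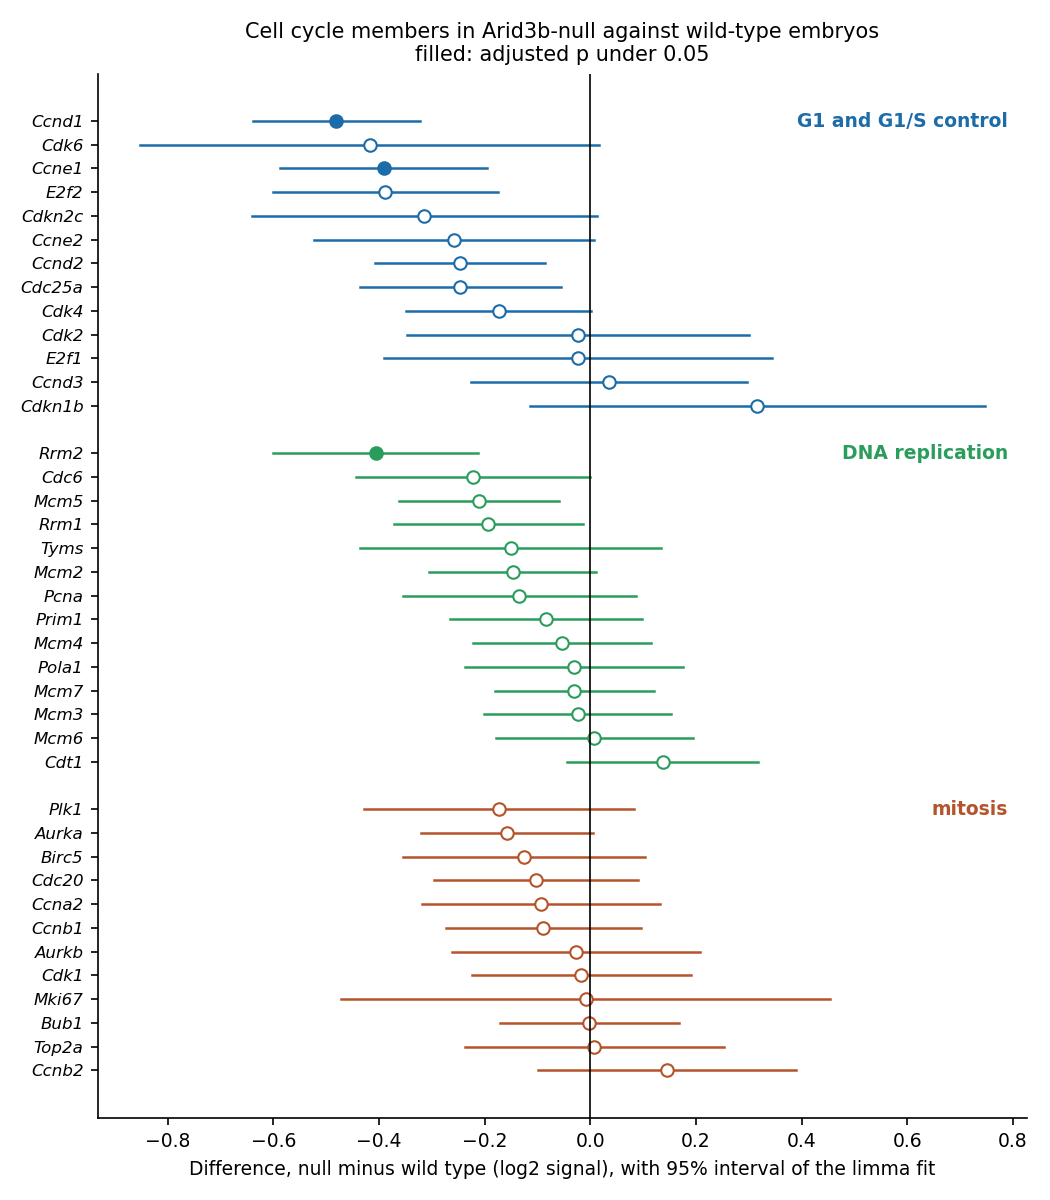
Difference of each cell cycle gene between null and wild-type pools (log2 signal, horizontal axis, 4 pools per genotype), with the 95% interval of the limma fit, in 3 subgroups. Filled points are the called genes Ccnd1, Ccne1 and Rrm2, and the points of the mitosis genes lie between -0.17 and 0.15.

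The size of the difference was not alike in the subgroups, and was not tested between them. The median was -0.25 over the G1 genes, -0.11 over the replication genes and -0.06 over the mitosis genes. Genes called lower numbered 2 of 13, 1 of 14 and 0 of 12, in the same order, against 1.35% of all genes. As a median over genes of each pool's signal minus the wild-type mean, the G1 genes stood at -0.28 to -0.20 in the null pools and at -0.09 to 0.08 in the wild-type pools. The replication genes stood at -0.15 to -0.08 in the null pools and at -0.04 to 0.02 in the wild-type pools. The null pools therefore lay below every wild-type pool in both of these subgroups. For the mitosis genes the null pools ran from -0.14 to 0.02 and overlapped the wild-type pools, at -0.03 to 0.04.

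**Figure D2:**
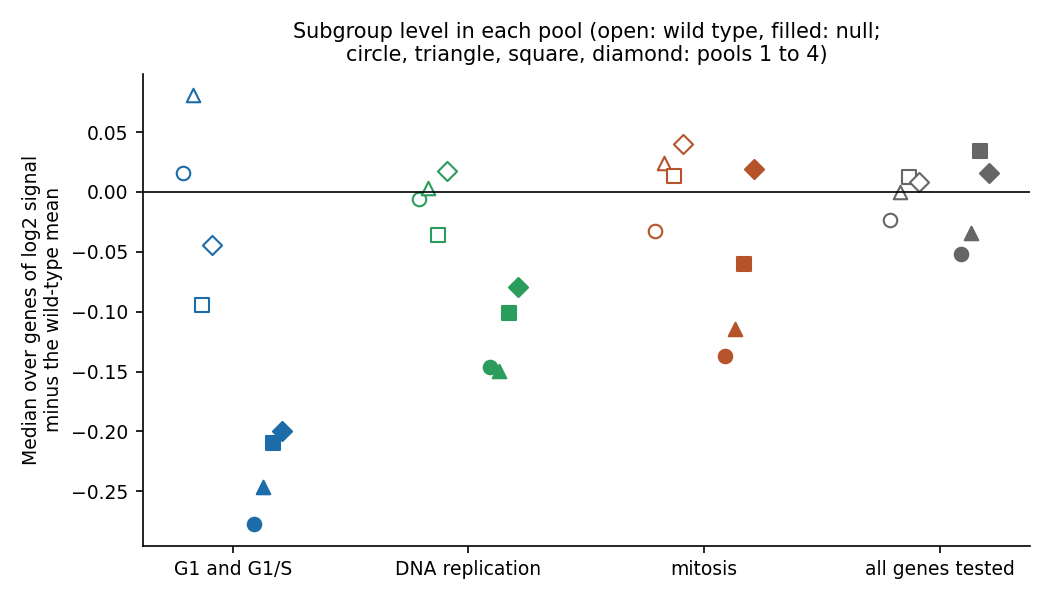
Median over the genes of a subgroup of the log2 signal minus the wild-type mean (vertical axis), for each of the 4 wild-type pools (open) and 4 null pools (filled), beside the same over all genes tested. The G1 genes of the null pools lie at -0.28 to -0.20, while the median over all genes tested lies at -0.05 to 0.03 in these pools.

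Among the G1 cyclins, Ccnd1 and Ccne1 fell. Ccnd1 encodes cyclin D1, a partner of CDK4 and CDK6 whose transcription responds to mitogens. Its signal was 2.91, 2.94, 2.92 and 2.82 in wild-type pools 1 to 4, and 2.40, 2.50, 2.34 and 2.44 in null pools 1 to 4. The groups did not overlap, and the highest null pool was well under the lowest wild-type pool. The difference was -0.48 ± 0.07 (SE, n = 4 pools per genotype; limma adjusted p = 0.0143), which put the null level at 71.7% of wild type. It was -0.48 within slide 1 and -0.48 within slide 2, from 2 pools per genotype each. With 1 pool left out, the adjusted p was 0.0613, 0.0518, 0.0511 and 0.0506 without wild-type pools 1 to 4 and 0.0593 without null pool 3. The call held without null pools 1, 2 and 4. The 1 probe for Ccnd1 was placed on an unlocalised part of chromosome 7 in the build of the array files, mm7.

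Ccne1 encodes cyclin E1, which activates CDK2 at the entry into S phase. Its signal was 4.87, 4.98, 4.76 and 4.78 in wild-type pools 1 to 4, and 4.33, 4.59, 4.46 and 4.44 in null pools 1 to 4. The lowest wild-type pool, number 3, stood above the highest null pool, number 2. The difference was -0.39 ± 0.09 (SE; limma adjusted p = 0.0447), a null level of 76.3% of wild type. Within slides it was -0.47 and -0.32. The call held without null pool 2 (adjusted p = 0.0472) and was lost without any other single pool, at 0.0824 to 0.131. The other kept probe of Ccne1 gave -0.50 ± 0.08, with a limma adjusted p of 0.0182 over all probes kept, where the brighter probe had 0.0512. In that fit over 25555 probes limma called 3.46%. Both probes carry the same position in the array files, on chromosome 7 from 34990690 to 34990713 (mm7).

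The remaining G1 cyclins were not called. Ccnd2, for cyclin D2, had 5.68, 5.51, 5.60 and 5.52 in the wild-type pools and 5.28, 5.29, 5.37 and 5.38 in the null pools. These did not overlap, with a difference of -0.25 ± 0.07 (limma adjusted p = 0.0938). All 3 kept probes of Ccnd2 were lower in the null pools, by -0.34 to -0.16. Ccne2, for cyclin E2, stood at -0.26 ± 0.12 (adjusted p = 0.255), and its 2 probes were both lower. Ccnd3, for cyclin D3, stood at 0.04 ± 0.11 (adjusted p = 0.917), with an interval from -0.23 to 0.30. Of the 3 D-type cyclin genes, then, 1 was called, 1 had separate groups without a call and 1 had overlapping groups. Over all genes 1.35% were called lower, and 8.06% had all null values below all wild-type values.

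The E2F genes and the phosphatase gene Cdc25a encode activators of the same step. E2f2 had 1.54, 1.73, 1.43 and 1.49 in the wild-type pools and 1.27, 1.03, 1.21 and 1.12 in the null pools. The groups did not overlap, and the difference of -0.39 ± 0.09 was about as large as that of Ccne1 but missed the threshold (limma adjusted p = 0.0583). With slide as a block its adjusted p was 0.0407, in a fit that called 564 of all genes lower, against 231 without a block. E2f1 had 0.33, 0.62, 0.03 and 0.27 in the wild-type pools and 0.24, 0.65, 0.19 and 0.08 in the null pools. Its groups overlapped throughout, with a difference of -0.02 ± 0.16 (adjusted p = 0.966) and an interval from -0.39 to 0.34. Cdc25a, whose phosphatase removes inhibitory phosphates from CDK2, stood at -0.25 ± 0.08 (adjusted p = 0.142) with separate groups.

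Of the kinases, Cdk4 had separate groups and stood at -0.17 ± 0.08 (limma adjusted p = 0.244). Cdk2 had -2.03, -2.51, -2.51 and -2.20 in the wild-type pools and -2.41, -2.56, -2.20 and -2.17 in the null pools. Its groups overlapped, with a difference of -0.02 ± 0.14 (adjusted p = 0.959) that was -0.21 within slide 1 and 0.17 within slide 2. The other Cdk2 probe was on the opposite side of 0, at 0.13 ± 0.29, so no direction is given for Cdk2.

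Cdk6 gave opposite differences on its probes. On the brightest probe the signal was 1.98, 1.48, 2.08 and 1.95 in the wild-type pools and 1.46, 1.06, 1.84 and 1.46 in the null pools. The groups overlapped, with a difference of -0.42 ± 0.19 (limma adjusted p = 0.261). With the replicate number as a block, which compares same-numbered pools, the adjusted p was 0.0276, in a fit that called 5.92% of all genes lower. A dimmer probe gave -2.09, -2.19, -2.44 and -2.26 in the wild-type pools and -1.40, -1.03, -1.56 and -1.59 in the null pools. There every null pool lay above every wild-type pool, and the signal on this probe rose by 0.85 ± 0.14 (limma adjusted p = 0.0234 over all probes kept). The third probe stood at -0.64 ± 0.47 (adjusted p = 0.504), with wild-type pool 4 at -2.62 and the other wild-type pools at -4.82 to -4.52. In the mm7 positions of the array files on chromosome 5, the brightest probe lies at 3535293 to 3535352 and the third at 3527675 to 3527734. The probe that was higher in null pools has its ends at 3479226 and 3521510, farther apart than a probe is long, so it joins separate stretches of the gene. Which of the probes reports the level of Cdk6 was not tested.

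The inhibitors in the G1 subgroup were Cdkn1b, for p27, which binds cyclin-CDK2 complexes, and Cdkn2c, for p18, which binds CDK4 and CDK6. Cdkn1b stood at 0.32 ± 0.19 (limma adjusted p = 0.401), the highest value of the 39, and was higher on both of its probes and within both slides. Cdkn2c stood at -0.31 ± 0.14 (adjusted p = 0.260) and was lower on both of its probes. Neither was called, and the groups of both overlapped.

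**Figure D3:**
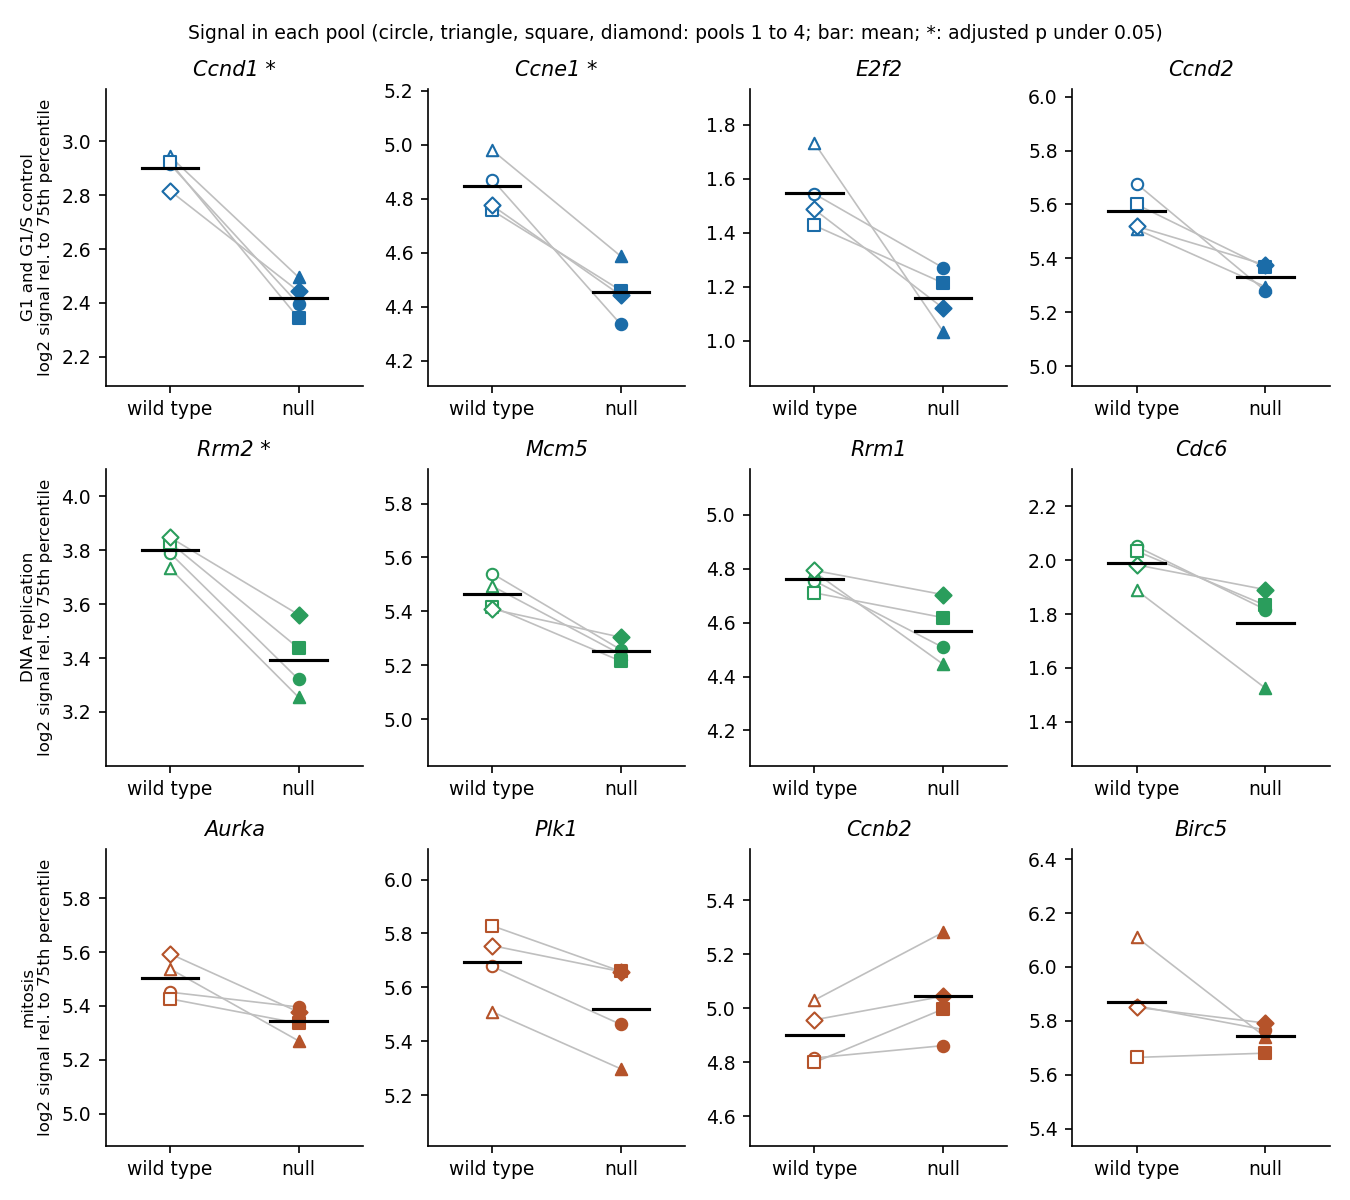
Log2 signal relative to the 75th percentile of the array (vertical axis) in each wild-type and null pool, for the 4 genes with the smallest p in each subgroup. Marker shapes are pool numbers, grey lines join same-numbered pools, bars are means, and asterisks mark the called genes, Ccnd1, Ccne1 and Rrm2.

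Among the replication genes, Rrm2 fell. It encodes the small subunit of ribonucleotide reductase, whose amount is tied to S phase. Its signal was 3.79, 3.73, 3.83 and 3.85 in wild-type pools 1 to 4, and 3.32, 3.25, 3.44 and 3.56 in null pools 1 to 4. All null pools were lower than all wild-type pools, with the pools of slide 1 the lowest. The difference was -0.41 ± 0.08 (SE, n = 4 pools per genotype; limma adjusted p = 0.0413), which is 75.4% of wild type. It was -0.47 within slide 1 and -0.34 within slide 2. Without null pool 4 the adjusted p was 0.0333, and without any other single pool it was 0.0657 to 0.121.

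Rrm1, for the large subunit of the same enzyme, had 4.75, 4.79, 4.71 and 4.79 in the wild-type pools and 4.51, 4.45, 4.62 and 4.70 in the null pools. The groups were separate by a narrow margin, with a difference of -0.19 ± 0.08 (limma adjusted p = 0.209). Tyms, for the thymidylate synthase that makes the precursor of dTTP, stood at -0.15 ± 0.12 (adjusted p = 0.558) and was lower on both of its probes. Of these 3 genes only Rrm2 was called, where limma called 1.35% of all genes lower.

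The origin licensing genes were not called. Cdc6, which loads the MCM helicase with Cdt1, had 2.05, 1.89, 2.03 and 1.98 in the wild-type pools and 1.82, 1.53, 1.83 and 1.89 in the null pools. Null pool 4 reached the lowest wild-type pool, and the difference was -0.22 ± 0.10 (limma adjusted p = 0.240). Cdt1 stood on the other side of 0, at 0.14 ± 0.08 (adjusted p = 0.382), and was the highest value among the replication genes.

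The 6 helicase subunit genes Mcm2 to Mcm7 ranged from -0.21 to 0.01, and 1 of them had separate groups. This was Mcm5, with 5.54, 5.49, 5.42 and 5.41 in the wild-type pools and 5.26, 5.24, 5.22 and 5.30 in the null pools, a difference of -0.21 ± 0.07 (limma adjusted p = 0.118). Mcm6 had 6.42, 6.51, 6.47 and 6.60 in the wild-type pools and 6.38, 6.45, 6.61 and 6.59 in the null pools. Mcm3 had 5.76, 5.74, 5.75 and 5.85 in the wild-type pools and 5.72, 5.65, 5.90 and 5.75 in the null pools. Both overlapped, at 0.01 ± 0.08 for Mcm6 and -0.02 ± 0.08 for Mcm3 (adjusted p = 0.978 and 0.918), with intervals from -0.18 to 0.19 and from -0.20 to 0.15. The sign of Mcm6 turned with a median shift (-0.08), with quantile normalization (-0.08) and in the deposited value table (-0.11), so it is not given a direction. Over the alternatives Mcm3 ran from -0.11 to 0.06, Mcm4 from -0.14 to 0.04 and Mcm7 from -0.12 to 0.03. They are given no direction either. Mcm2 stood at -0.15 ± 0.07, Mcm4 at -0.05 ± 0.07 and Mcm7 at -0.03 ± 0.07. The subunits act as 1 ring, and a difference of 0.5 on the log2 scale lay outside the interval of each of the 6.

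Genes of the replication fork were not called either. Pcna, for the sliding clamp, stood at -0.13 ± 0.10 (limma adjusted p = 0.494). Pola1 and Prim1, for the catalytic subunits of DNA polymerase alpha and primase, stood at -0.03 ± 0.09 and -0.08 ± 0.08 (adjusted p = 0.903 and 0.619). For 13 of the 14 replication genes the whole 95% interval lay within 0.5 of 0 on the log2 scale, the exception being Rrm2, and over all genes tested this held for 56.2%.

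No mitosis gene was called, with 0 of 12 at an unadjusted p under 0.05 in limma. The gene with the smallest p was Aurka, for aurora kinase A of the centrosomes and spindle poles. It had 5.45, 5.54, 5.43 and 5.59 in the wild-type pools and 5.40, 5.27, 5.34 and 5.38 in the null pools. The groups were just separate, with a difference of -0.16 ± 0.07 (limma adjusted p = 0.258). Plk1, for polo-like kinase 1, had 5.68, 5.51, 5.83 and 5.75 in the wild-type pools and 5.46, 5.30, 5.66 and 5.66 in the null pools. These overlapped, although each null pool was below its same-numbered wild-type pool, at -0.17 ± 0.11 (adjusted p = 0.443). Aurkb, for aurora kinase B of the chromosomal passenger complex, stood at -0.03 ± 0.10.

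Birc5, for survivin of the same passenger complex, had 5.86, 6.11, 5.66 and 5.85 in the wild-type pools and 5.77, 5.74, 5.68 and 5.79 in the null pools. The groups overlapped, at -0.13 ± 0.10 (limma adjusted p = 0.543). Ccnb2, for cyclin B2, had 4.82, 5.03, 4.80 and 4.96 in the wild-type pools and 4.86, 5.28, 4.997 and 5.04 in the null pools, at 0.15 ± 0.11 (adjusted p = 0.502). It was higher in every same-numbered pair and overlapped between groups. The other cyclin and kinase genes of mitotic entry were Ccna2 at -0.09 ± 0.10, Ccnb1 at -0.09 ± 0.08 and Cdk1, listed under its older name Cdc2a on the array, at -0.02 ± 0.09.

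The remaining mitosis genes had overlapping groups. Mki67, which encodes the Ki-67 protein of cycling cells, had 5.01, 4.64, 4.94 and 4.97 in the wild-type pools and 5.26, 4.31, 5.10 and 4.85 in the null pools. The null pools spread to both sides of the wild-type pools, at -0.01 ± 0.20 (limma adjusted p = 0.990) and an interval from -0.47 to 0.45. Bub1, for a kinase of the spindle checkpoint, had 2.81, 2.75, 2.78 and 2.81 in the wild-type pools and 2.86, 2.64, 2.85 and 2.78 in the null pools, with an adjusted p of 0.993 and an interval from -0.17 to 0.17. Top2a, for topoisomerase II alpha, stood at 0.01 ± 0.11, and Cdc20, for an activator of the anaphase-promoting complex, at -0.10 ± 0.08. All 12 mitosis genes had an interval within 0.5 of 0, against 6 of 13 in the G1 subgroup and 56.2% of all genes. The probes of the G1 genes were dimmer, with a mean signal of 1.43 to 1.58 in the wild-type pools. It was 4.72 to 4.77 for the replication genes and 4.16 to 4.23 for the mitosis genes. The part of signal level in the intervals and in the order of the subgroups was not tested.

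The slides gave the same order of subgroups. The median over the G1 genes was -0.30 within slide 1 and -0.20 within slide 2, over the replication genes -0.16 and -0.07, and over the mitosis genes -0.10 and -0.01. All 3 values were farther from 0 on slide 1. Of the 39 genes, 24 were lower in null pools within both slides, against 38.8% of all genes, and 21 were lower in each of the 4 same-numbered pairs, against 24.2% of all genes. Within 1 slide limma called 0 of the 39 and 0 of all genes. On each slide 4 of the 39 had an unadjusted p under 0.05, against 11.0% of all genes on slide 1 and 16.8% on slide 2, so these counts did not exceed the background.

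**Figure D4:**
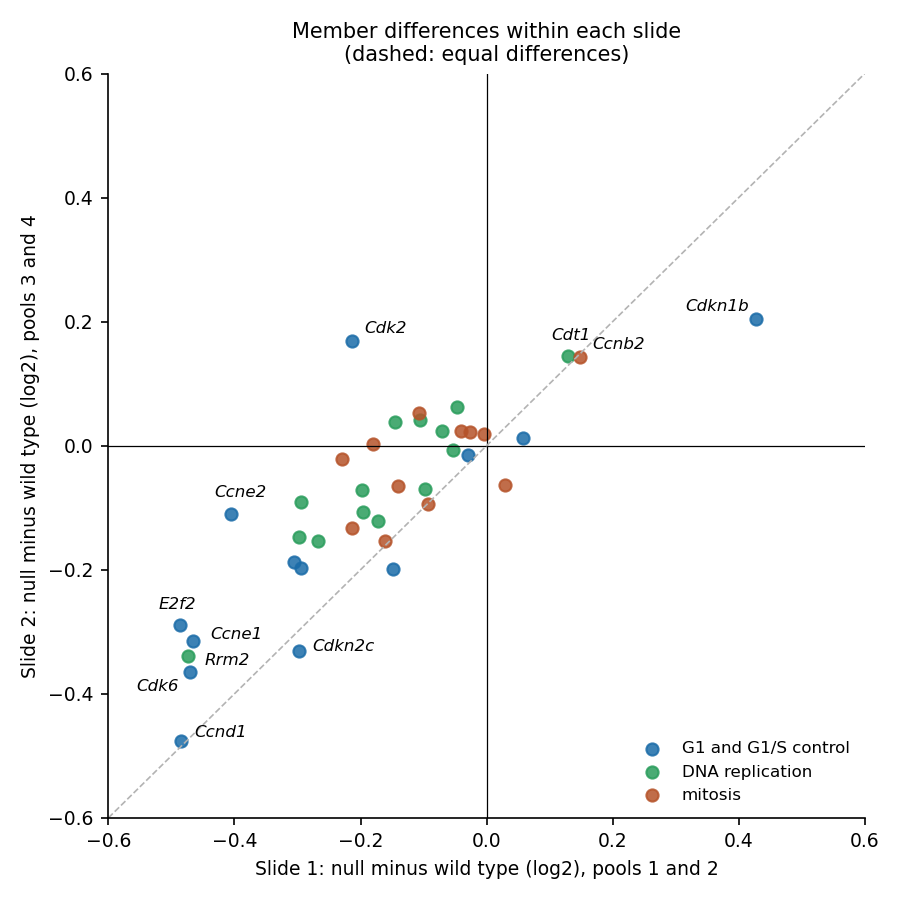
Difference of each of the 39 genes within slide 1 (horizontal axis, 2 pools per genotype) and within slide 2 (vertical axis), both as null minus wild type on the log2 scale. Ccnd1 lies at -0.48 on both axes, and the mitosis genes lie between -0.15 and 0.14 on the vertical axis.

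Of the 39 genes, 16 had more than 1 kept probe, and for 14 of these all kept probes lay on the same side of 0. The exceptions were Cdk6 and Cdk2. Probes of a gene share its RNA and are not replicates of the genotype. Every kept probe of Ccne1, Ccne2, Ccnd2, Cdc25a and Cdc6 was lower in the null pools.

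**Figure D5:**
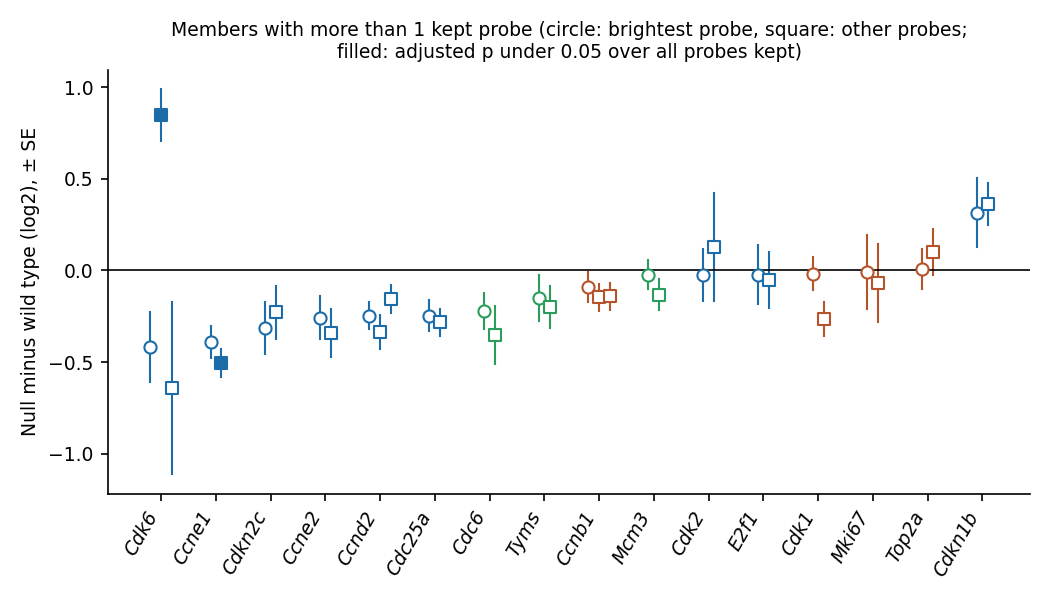
Difference of each kept probe (null minus wild type, log2, bars are SE of the limma fit on 4 pools per genotype) for the 16 genes with more than 1 kept probe. Filled symbols, called over all probes kept, are the dimmer Ccne1 probe at -0.50 and the Cdk6 probe at 0.85.

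The sequence before the start of each gene was searched for E2F recognition words, because E2F factors act on many genes of this set. RefSeq promoters on GRCm38.p6 were matched for 33 of the 39, and Ccnd1, Ccnd2, Ccne2, Ccna2, Mcm4 and Aurkb were not matched. The words searched were TTCCCGC, its variant TTCGCGC, the further variant TTGCCGC and the fourth variant TTGGCGC, on either strand, in the 250 bases before the start. They can overlap each other on opposite strands. At least 1 was present in 8 of 13 replication genes (61.5%), 3 of 10 G1 genes and 3 of 10 mitosis genes, and in 9.01% of all 27025 genes of the table. The table was not limited to the genes tested here, and a gene with more than 1 start counted if any start had a word. A match of letters is not a measured site.

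The 250 bases are shown for the called genes with an entry, Ccne1 and Rrm2, and for Mcm6, the replication gene with the largest p. Bases run 5′ to 3′ on the strand of the gene, and capitals mark the E2F words.
Ccne1 (chr7:38107491-38107740, minus strand): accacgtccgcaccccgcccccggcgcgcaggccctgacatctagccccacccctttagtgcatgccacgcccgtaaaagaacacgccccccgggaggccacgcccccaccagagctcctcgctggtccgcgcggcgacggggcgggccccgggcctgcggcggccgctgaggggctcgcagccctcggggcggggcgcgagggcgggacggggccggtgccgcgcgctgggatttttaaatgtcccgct
Rrm2 (chr12:24708004-24708253, plus strand): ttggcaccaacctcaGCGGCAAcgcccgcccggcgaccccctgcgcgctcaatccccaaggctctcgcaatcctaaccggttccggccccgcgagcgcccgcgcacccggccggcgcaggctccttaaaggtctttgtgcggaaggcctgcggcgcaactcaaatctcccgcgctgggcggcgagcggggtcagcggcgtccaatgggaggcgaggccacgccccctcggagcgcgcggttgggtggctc
Mcm6 (chr1:128359706-128359955, minus strand): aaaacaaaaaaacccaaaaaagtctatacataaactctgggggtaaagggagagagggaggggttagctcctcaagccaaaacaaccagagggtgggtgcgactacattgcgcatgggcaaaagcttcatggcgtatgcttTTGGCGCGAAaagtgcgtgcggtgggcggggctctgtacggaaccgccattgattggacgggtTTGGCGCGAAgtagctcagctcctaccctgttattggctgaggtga
Mcm6 has 2 runs of capitals, each of which reads as TTGGCGC on the printed strand and as TTCGCGC on the other, starting 109 and 46 bases before the gene's start. Rrm2 has 1 word, TTGCCGC on the strand opposite to the one printed, 235 bases before the start. Ccne1 has none in this window. The gene with 4 matches, Mcm6, thus had a difference near 0, and of the called genes 1 has a match and 1 has none. Over the 14 genes with a word the median difference was -0.09, with 1 called, and over the 19 without a word it was -0.13, with 1 called.

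Words known from promoters of mitosis genes were also counted. The cell cycle homology words TTTGAA and TTCGAA were present on either strand in 5 of 10 mitosis genes, 2 of 13 replication genes and 1 of 10 G1 genes, against 19.6% of all genes. CCAAT, the box bound by the factor NF-Y, was present in 9 of 10 mitosis genes, 10 of 13 replication genes and 5 of 10 G1 genes, against 37.5% of all genes. No word was used to choose the genes.

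Further genes of the same pathway were taken from lists written for the comparison, with earlier results of these data known. Over all genes limma called 1.35% lower and 2.85% higher, and 20.7% had an unadjusted p under 0.05. Among 47 other replication and nucleotide genes 1 fell and 0 rose, with 12 at an unadjusted p under 0.05 in limma, 38 with a lower mean and a median of -0.10. The called gene was Asf1b, a histone chaperone of replicating chromatin, at -0.36 ± 0.08 (limma adjusted p = 0.0461), and it was called in 0 of the 8 fits without a pool. With the replicate number as a block 8 of the 47 were called lower and 1 higher, where that fit called 5.92% of all genes lower and 7.78% higher. Among 50 other mitosis genes 0 were called and 1 had an unadjusted p under 0.05, with a median of -0.03. The smallest p was that of Racgap1, a regulator of cytokinesis, at -0.26 ± 0.08 (adjusted p = 0.107, and 0.0448 when blocked on replicate number). Among 21 regulators of the Rb, E2F and MYC group 0 were called and 2 had an unadjusted p under 0.05, with a median of -0.11. There the smallest p was that of Tfdp1, the dimer partner of E2F factors, at -0.25 ± 0.08 (adjusted p = 0.128).

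On the inhibitory side, 5 of 6 other CDK inhibitor genes were tested, all but Cdkn2a. None was called and 0 had an unadjusted p under 0.05, and the smallest p was that of Cdkn1c, for p57, at -0.21 ± 0.11 (limma adjusted p = 0.338). In the list of 14 cell cycle exit and antiproliferative genes 1 rose and 0 fell, 11 had a higher mean, 7 had an unadjusted p under 0.05 and the median was 0.22. Over all genes 2.85% were called higher and 20.7% had an unadjusted p under 0.05. Blocked on replicate number, 4 of the 14 were called higher, where that fit called 7.78% of all genes higher. This list too was written with earlier results known, so its counts are a description only. Ccng2, for cyclin G2, an atypical cyclin found in cells that leave the cycle, had 1.58, 1.65, 1.86 and 1.83 in the wild-type pools and 2.91, 3.03, 2.86 and 2.55 in the null pools. Every null pool was above every wild-type pool. Ccng2 rose by 1.11 ± 0.12 (limma adjusted p = 0.00525), 2.16-fold, and was called in all 8 fits without a pool, unlike Ccnd1, Ccne1 and Rrm2.

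Markers of some cell types in the embryo also differed between genotypes. Over all genes limma called 1.35% lower and 2.85% higher, and 20.7% had an unadjusted p under 0.05. Of 12 primitive erythroid markers 1 fell, Klf1, all 12 had a lower mean, and the mean level of the list was 1.91 to 2.35 in the wild-type pools and 1.38 to 1.96 in the null pools. Of 12 early neuron markers 3 fell, Neurod4, Nhlh1 and Nhlh2, with levels of -1.94 to -1.46 and -2.40 to -2.00. Neurod4 and Nhlh2 were well above background on 4 wild-type and 0 null arrays, so they passed the filter through the wild-type pools, and Nhlh1 was well above background on all 8 arrays. Of 10 neural progenitor markers 3 fell, Fabp7, Lhx2 and Sox3, with levels of 0.49 to 0.57 and 0.09 to 0.26. Of 10 tested cardiomyocyte markers 0 were called, with 3 at an unadjusted p under 0.05, at 3.23 to 3.39 and 3.37 to 3.64. Of 12 yolk sac endoderm markers 0 were called, with 1 at an unadjusted p under 0.05, at -2.21 to -0.99 and -2.28 to -0.88. Of 11 decidua and trophoblast markers 2 passed the filter on dim probes, with 0 called and 0 at an unadjusted p under 0.05, at -2.80 to -2.25 and -3.40 to -1.53. Blocked on replicate number, the calls were 2 lower for the erythroid list, 4 lower for early neurons, 6 lower for neural progenitors and 1 higher for cardiomyocytes. That fit called 5.92% of all genes lower and 7.78% higher. The mean was lower in null pools for all 12 early neuron and all 10 neural progenitor markers, against 51.3% of all genes. This was so for 0 of 10 cardiomyocyte, 5 of 12 yolk sac endoderm and 1 of 2 decidua and trophoblast markers. The part of these cell types in the lower cell cycle values was not tested.

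The pools differed in embryo sex as well. Y-linked transcripts, as a share of their level in the highest pool, stood at 0.0228, 0.836, 0.280 and 0.0259 in wild-type pools 1 to 4 and 0.516, 0.870, 0.479 and 1 in null pools 1 to 4. With this level as a covariate, Ccnd1 stood at -0.54 (limma adjusted p = 0.0354), Ccne1 at -0.47 (0.0655) and Rrm2 at -0.40 (0.112). Without it the 3 differences were -0.48, -0.39 and -0.41. Of the 3 calls 1 remained, in a fit that called 304 of all genes, 85 of them lower. Without the covariate limma called 718, 231 of them lower. The part of embryo sex in these values was not tested.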

How the data were processed

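The authors deposited 1 scanner file per array and a value table. Per the file headers, spots were read with Feature Extraction 9.5.3.1, and the processed intensity is Cy3 brightness from which a fitted spatial background was subtracted, detrended within the array and not scaled between arrays. Mean spot and local background intensity, also deposited by the authors, served an alternative background correction. The deposited table, used as an alternative, covers 27108 probes in log2 values whose column medians are 9.44 to 9.47. Its lowest correlation with an array's log2 processed intensity was 0.988, and the sources used here do not say how it was scaled and centred.

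Control spots (1639 of 45018) and 87 to 175 outlier spots per array were left out, spots of a probe were averaged on the log2 scale, and the 75th percentile of each array, 1280 to 1703, was subtracted. A probe was kept if 4 or more of the 8 arrays had it well above background (25555 of 41174). On each array 59.9% to 64.1% of probes were well above background. The brightest kept probe stood for its gene, with at least 2 values per group. Names came from a RefSeq table for GRCm38.p6: accessions named 22951 probes, symbols 6659 and older names 3109, while 8455 stayed as the file has them. Probe coordinates were taken from the files (mm7).

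The genotype comparison used lmFit and eBayes of limma 3.58.1 under R 4.3.3 (genotype only, two-sided, Benjamini-Hochberg over all 17099 genes), and the steps were tested on simulated data. Every p-value of a gene or probe comes from such a fit. Deviations of same-numbered pools from their group means correlated across genes at 0.557, 0.635, 0.523 and 0.426 (numbers 1 to 4 of the labels). Same-numbered pools also share a slide. With the slide mean removed the correlation was 0.518 within slide 1 and 0.0981 within slide 2. A correlation by number beyond the slide was thus seen on slide 1 and hardly on slide 2, and the labels do not state a pairing. On slide 1, wild-type and null pools 2 also had the lowest 75th percentile of their genotype (1339 and 1280). Their Y-linked levels were 0.836 and 0.870. A pairing by number cannot be told apart from these, and its cause was not tested. The fit behind the reported calls leaves the number out. A fit with the number as a block is given where it changes a call or a count of calls. All 39 genes are accounted for. Values in every pool are given for called genes and, per subgroup, for the 4 with the smallest p and the 2 with the largest, and genes whose probes differ in direction are named. From each pathway list the text names up to 4 called genes, or the gene with the smallest p. Marker lists are given by counts, level and called genes. The genes, lists and tests were chosen with earlier results of these data known.

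Alternatives were a median shift, no shift, quantile normalization, normexp background correction with an offset of 50, no filter on dim probes, a filter on all 8 arrays, the mean of a gene's probes, the deposited table, the replicate number or slide as a block, each slide alone and each pool left out. The Y-linked level as a covariate was added after seeing the data.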

Additional observations from a re-analysis of the deposited data

Results flagged for a closer look

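Single pools stood far from the other 3 pools of their genotype for 4 of the 39 genes, measured as the gap to the nearest pool divided by the range of the group. With 78 groups of 4 pools examined, about 1 in 20 would be marked by chance. For Cdk4 the ratio was 0.832, with wild-type pool 2 at 4.63 and the others at 4.51 to 4.53. For Cdc25a it was 0.889, with null pool 2 at -0.32 and the others at -0.07 to -0.04. For Pola1 it was 0.837, with wild-type pool 1 at 2.61 and the others at 2.48 to 2.50. For Cdk1 it was 0.872, with wild-type pool 1 at 3.35 and the others at 3.43 to 3.44. None of these genes was called.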

How the results depend on the processing

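The count of called genes, 718 of all genes and 3 of the 39, was 204 and 1 (Rrm2) with a median shift, 157 and 0 with no shift between arrays, 164 and 1 (Ccnd1) with no filter on dim probes, and 304 and 1 (Ccnd1) with the Y-linked level as a covariate, an alternative chosen after seeing the data. With normexp background correction limma called 0 and 0, with 740 genes and 2 of the 39 at an unadjusted p under 0.05. Within slide 1 and within slide 2 it called 0 and 0, with 1881 and 2861 genes at an unadjusted p under 0.05, from 2 pools per genotype. The deposited table gave 462 genes and quantile normalization 708, and both lost Rrm2 (adjusted p = 0.0851 and 0.0635). The filter on all 8 arrays gave 837 genes and added E2f2 (0.0487). The replicate block gave 2343 genes and the slide block 1370. The replicate block also called Cdk6 and the slide block also E2f2, and the replicate block changed no other call among the 39. Without 1 pool the counts were 93 to 628 genes and 0 to 2 of the 39, with 0 of the 39 without any of wild-type pools 1 to 4 or null pool 3. Of the called genes 67.8% were higher, against 52.0% with a median shift, 79.6% with no shift and 83.5% with no filter. The cause was not tested. The median over the G1 genes was -0.34 with a median shift and -0.32 with no shift, over the replication genes -0.20 and -0.18, and over the mitosis genes -0.15 and -0.13. These shifts moved the median of all genes to -0.10 and -0.08. The replication median was -0.032 with normexp, -0.16 within slide 1, -0.071 within slide 2 and -0.13 to -0.074 without 1 pool, the value nearest 0 being that without wild-type pool 2. Medians without 1 pool were -0.27 to -0.21 for the G1 genes and -0.10 to -0.04 for the mitosis genes. The mitosis median was -0.012 with normexp and -0.026 with quantile normalization. All 3 medians stayed below 0 under every alternative run, but with normexp the median of all genes was -0.067, so that the replication and mitosis medians lay above it. The 4 pools per genotype limit what could be called. All 39 genes also passed the filter on all 8 arrays. The part of signal over background in the calls was not tested.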
